A study of Mus musculus with 48 samples.

Results

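The glycerolipid enzymes described here were the products of 10 genes, taken by symbol from the deposited expression table of 14251 genes. They were Gpam, Gpat3 and Gpat4 (glycerol-3-phosphate acyltransferases), Agpat1, Agpat2 and Agpat3 (acylglycerolphosphate acyltransferases), Lpin1 and Lpin2 (lipin phosphatidate phosphatases) and Dgat1 and Dgat2 (diacylglycerol acyltransferases). All 10 were found, and all 10 passed the filter on low counts. Liver RNA of 48 male C57BL6J mice was read by QuantSeq, which counts 3′ ends of polyadenylated transcripts. The vehicle control-diet group (n = 10) drank water with 1% ethanol and the vehicle atglistatin group (n = 10) drank the same while eating food with atglistatin at 571 mg/kg. The corticosterone control-diet group (n = 14) drank corticosterone at 100 ug/ml and ate the control diet, and the corticosterone atglistatin group (n = 14) received both agents. The ethanol content of the corticosterone water is not given in the labels. Treatment lasted 2 weeks, and the ages of the mice and the units of glucose and insulin are not given in the labels. Corticosterone is the main glucocorticoid of rodents. Atglistatin inhibits adipose triglyceride lipase, the enzyme encoded by Pnpla2, and since it was given in the food its action need not be limited to the liver. Of the corticosterone mice, 9 on the control diet and 1 on atglistatin carry the label diabetic. The design asks how each agent moves these transcripts alone and in the presence of the other.

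Triglyceride is built on glycerol-3-phosphate in the order in which the enzymes are named above. A GPAT adds the first acyl chain, an AGPAT adds the next and yields phosphatidic acid, a lipin removes the phosphate to give diacylglycerol, and a DGAT adds the last acyl chain. Phosphatidic acid and diacylglycerol are also the branch points to phospholipids. In liver the product is stored in droplets or secreted in very low density lipoprotein.

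Levels are CPM, the counts of a gene scaled to a library total that is itself adjusted for composition. A library of this kind gives about 1 tag per transcript, so CPM were not divided by gene length, and levels of different genes are set side by side as tag counts only. Fold changes are log2 values ± SE from edgeR's quasi-likelihood test, with p adjusted over all genes tested by the Benjamini-Hochberg method. A gene passed the test, and is called higher or lower, where its adjusted p did not exceed 0.05. Total counts per library ran from 7449109 to 21175603. The corticosterone response gene Fkbp5 averaged 9.60 CPM without and 310.5 CPM with corticosterone on the control diet, and 18.2 and 192 CPM on atglistatin, with no overlap between the treated and untreated libraries. Fkbp5 was also called higher with atglistatin under vehicle (0.94 ± 0.25, adjusted p = 0.021) and lower under corticosterone (-0.69 ± 0.20, adjusted p = 0.014). The difference between these 2 atglistatin effects was called too (-1.63 ± 0.32, adjusted p = 0.0017). In 6 libraries the pancreatic gene Cpa1 exceeded 20 CPM (corticosterone control-diet replicate 30, vehicle atglistatin replicates 06 and 11, and vehicle control-diet replicates 09, 10 and 15). Corticosterone atglistatin replicate 41 stood apart by the highest Kupffer cell, adipocyte and stellate cell marker sums of its group. All 9 listed hepatocyte markers were present, with summed levels from 76770 to 142199 CPM over all libraries.

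The promoters of the gene with the largest rise under corticosterone (Lpin1), of the gene that fell (Gpam) and of the gene that fell with atglistatin in both drinking-water groups (Agpat2) are printed for orientation. Each line gives the 250 bases before the RefSeq transcription start on GRCm38.p6, read 5′ to 3′ along the gene. Capitals mark matches, on either strand, to any of 4 motifs: the half-site AGAACA of a glucocorticoid response element, the core CACCCCAC of a sterol response element, the E-box CACGTG and the CCAAT box. None of these motifs contains another.
Lpin1, minus strand, chr12:16610967-16611216: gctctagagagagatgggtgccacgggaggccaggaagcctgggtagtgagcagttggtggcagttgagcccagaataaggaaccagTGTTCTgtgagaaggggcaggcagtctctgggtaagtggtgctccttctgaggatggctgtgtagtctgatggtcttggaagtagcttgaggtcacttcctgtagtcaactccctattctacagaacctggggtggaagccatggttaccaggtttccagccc
Gpam, minus strand, chr19:55127239-55127488: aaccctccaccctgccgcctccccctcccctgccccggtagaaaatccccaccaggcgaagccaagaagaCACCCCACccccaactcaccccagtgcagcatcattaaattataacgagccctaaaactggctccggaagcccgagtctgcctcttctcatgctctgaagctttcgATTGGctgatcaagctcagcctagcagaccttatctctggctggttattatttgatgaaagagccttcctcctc
Agpat2, minus strand, chr2:26604418-26604667: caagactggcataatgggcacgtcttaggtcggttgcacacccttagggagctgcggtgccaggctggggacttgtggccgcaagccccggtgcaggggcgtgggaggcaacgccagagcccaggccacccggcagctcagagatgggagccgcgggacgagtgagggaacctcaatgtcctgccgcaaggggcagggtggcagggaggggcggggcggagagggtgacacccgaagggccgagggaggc
The Lpin1 window holds TGTTCT, the reverse complement of the glucocorticoid half-site, 163 bases before the start, and 16.1% of 32851 RefSeq windows of this length hold that half-site. The Gpam window holds CACCCCAC 180 bases before the start, which 2.58% of windows hold, and ATTGG, the reverse complement of the CCAAT box, 74 bases before it, which 33.8% of windows hold. The Agpat2 window holds none of these letters. RefSeq gave 11 windows for 7 of the 10 genes. The glucocorticoid half-site was also in 1 window of Lpin2, 203 bases before that start, and Lpin2 did not pass with corticosterone. The other Gpam window, at chr19:55099478-55099727, holds none of the 4 motifs. The E-box was in 1 window, of Lpin2, and the CCAAT box also in 1 window of Agpat1 and 1 of Lpin2. These matches are descriptions of the sequence, and binding was not measured.

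At the GPAT, AGPAT and DGAT steps 1 of the listed genes gave most of the tags on average in each group. Gpat4 made up 94.9 ± 1.19% (SD, n = 10) of the summed GPAT tags in the vehicle control-diet group, with Gpam at 3.68 ± 0.93% and Gpat3 at 1.39 ± 0.37%. Agpat2 made up 77.4 ± 2.32% of the AGPAT tags, Agpat3 21.7 ± 2.36% and Agpat1 0.852 ± 0.214%. Agpat4, Agpat5 and Lclat1, outside the 10 genes, averaged 1.05, 13.2 and 20.8 CPM in that group and are not in this sum. Dgat2 made up 93.4 ± 0.671% of the DGAT tags. The lowest share in any library was 92.2% for Gpat4 and 90.2% for Dgat2. Among the lipins, Lpin1 held 35.5 ± 13.1% of lipin tags in the same group and 80.0 ± 9.31% (n = 14) in the corticosterone control-diet group. On atglistatin these shares were 36.1 ± 11.98% (n = 10) and 63.3 ± 11.7% (n = 14).

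**Figure D1:**
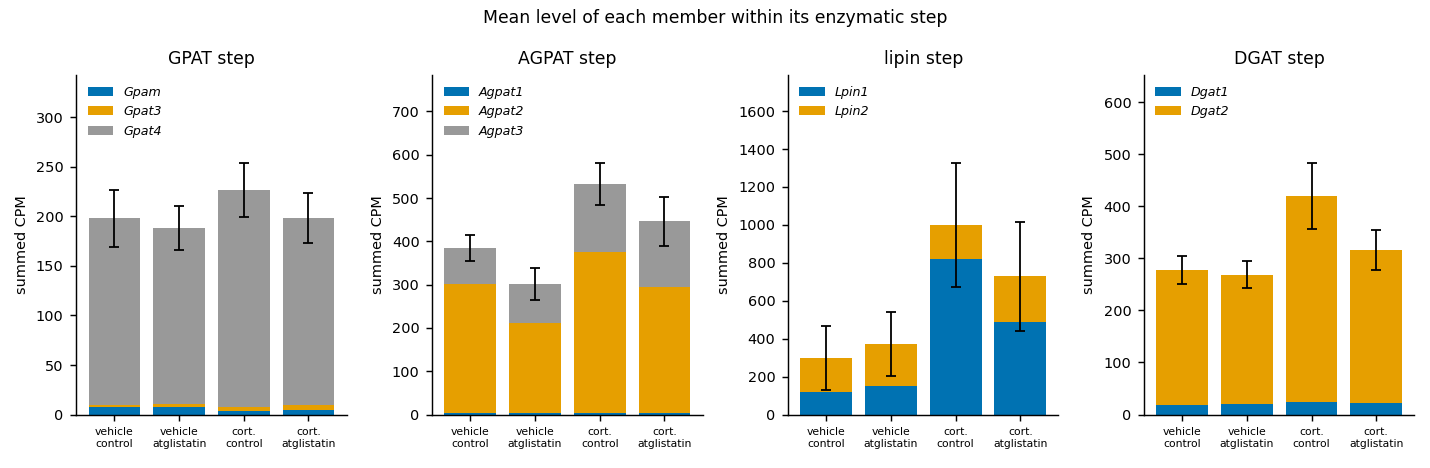
Mean tags of each gene stacked within its enzymatic step (y axis, summed CPM) in the 4 groups (x axis), with error bars of 1 SD of the sum over 10 or 14 libraries. The lipin sum was 296 ± 168 CPM with vehicle and 1000.1 ± 328 CPM with corticosterone on the control diet, with Lpin1 forming most of the latter.

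Corticosterone on the control diet raised 7 of the 10 genes and lowered 1. Lpin1 rose most (6.88-fold), Agpat3, Gpat3 and Dgat2 rose 1.53-fold to 1.90-fold, and Dgat1, Agpat2 and Gpat4 rose less, while Gpam fell to 50.7% of the vehicle mean. Agpat1 and Lpin2 did not pass. Over all 12688 genes tested, 22.5% were called higher and 21.7% lower. The median log2 fold change of the 10 genes was 0.35, against 0.01 for all genes. On atglistatin, corticosterone raised 5 (Gpat3, Agpat2, Agpat3, Lpin1 and Dgat2) and lowered 1 (Gpam), where 19.0% of all genes were called higher and 17.7% lower, and the median was 0.18 against 0.02. These 2 comparisons share no library. All 6 calls made on atglistatin were also made, in the same direction, on the control diet, and over all genes 74.9% of the higher and 78.6% of the lower calls on atglistatin were.

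**Figure D2:**
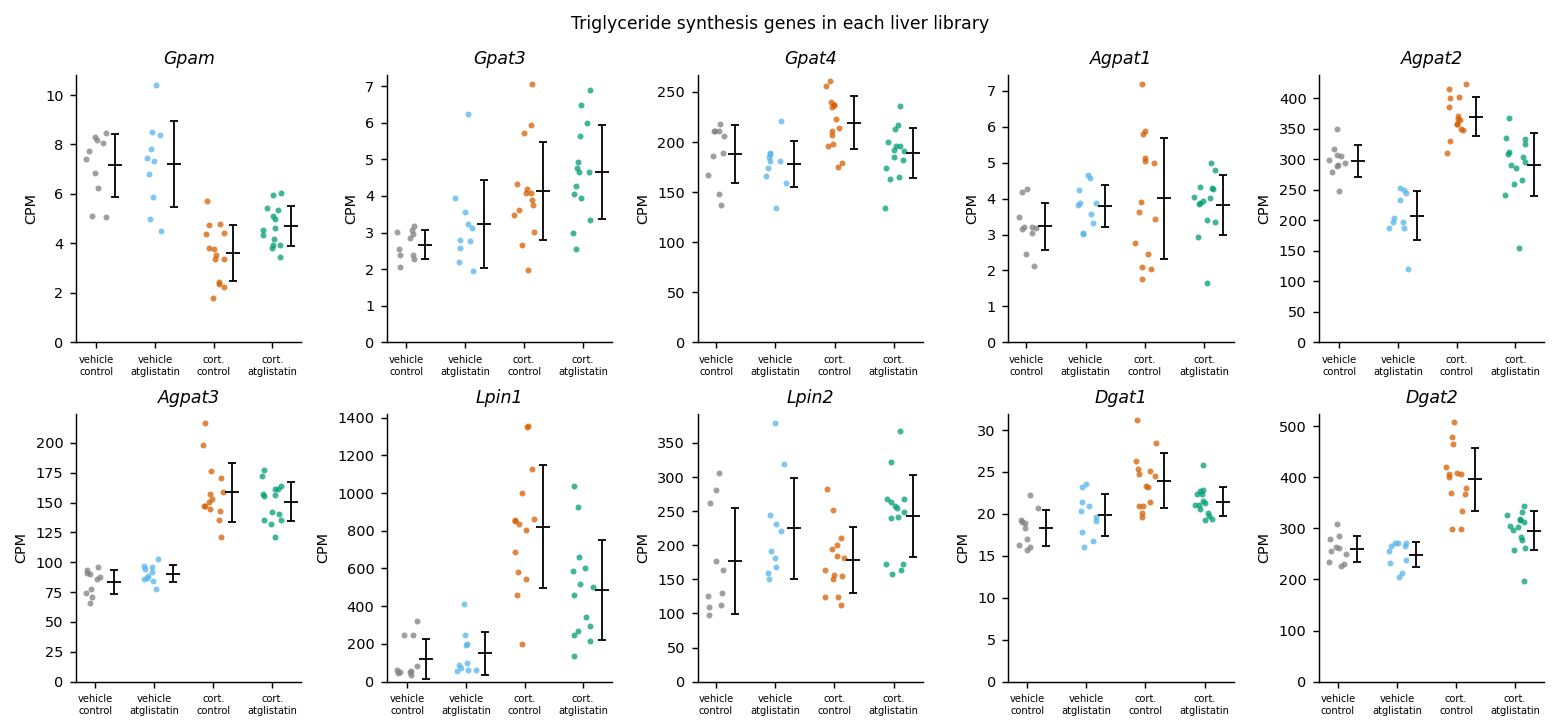
Level of each gene (y axis, CPM, from 0) in each of the 48 libraries (points) by group (x axis), with the mean and 1 SD beside each group. Agpat3 shows 2 levels that do not overlap, with all 20 vehicle libraries at or below 103 CPM and all 28 corticosterone libraries at or above 121 CPM, while Lpin1 spreads widely within every group.

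At the GPAT step the genes with few tags moved in opposite directions. Gpam (chromosome 19, 55067268 to 55127238, GRCm38) encodes the mitochondrial outer membrane enzyme, known as an insulin- and SREBP-responsive gene. With vehicle on the control diet its lowest, median and highest levels were 5.08, 7.58 and 8.45 CPM, and with corticosterone on that diet they were 1.78, 3.66 and 5.71 CPM. Of the 14 treated libraries, 13 lay below the lowest vehicle library, so the groups overlapped by 1 library (log2 fold change -0.99 ± 0.14, adjusted p = 1.1e-07). On atglistatin the level was 4.52, 7.41 and 10.4 CPM with vehicle and 3.45, 4.58 and 6.05 CPM with corticosterone (-0.62 ± 0.14, adjusted p = 0.00034). All 14 corticosterone libraries lay below the vehicle mean on either diet. The order of its group means ran from 3.62 ± 1.13 CPM (corticosterone control diet) through 4.69 ± 0.812 CPM (corticosterone atglistatin) to 7.15 ± 1.28 and 7.21 ± 1.75 CPM (vehicle without and with atglistatin), and neither pair of neighbours within a drinking-water treatment passed the test.

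Gpat3 (chromosome 5, 100845713 to 100899102) and Gpat4 (chromosome 8, 23171265 to 23208346) encode enzymes of the endoplasmic reticulum. Gpat3 rose from 2.67 ± 0.392 to 4.13 ± 1.34 CPM on the control diet (0.63 ± 0.18, adjusted p = 0.0028) and from 3.23 ± 1.21 to 4.65 ± 1.28 CPM on atglistatin (0.53 ± 0.17, adjusted p = 0.011). Of the 14 treated libraries, 12 lay above the vehicle mean on each diet. Gpat4, with the most tags of the listed GPAT genes, rose from 188 ± 29.02 to 219 ± 26.6 CPM on the control diet (0.22 ± 0.08, adjusted p = 0.028). That call was lost without any 1 of corticosterone control-diet replicates 30, 37, 45 and 49 or vehicle control-diet replicates 01, 02 and 04, where the value lay between 0.17 and 0.20 and the adjusted p between 0.051 and 0.087. On atglistatin its means were 178 ± 22.6 and 189 ± 25.3 CPM (0.09 ± 0.08, 95% interval -0.07 to 0.25, adjusted p = 0.43).

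At the AGPAT step, Agpat3 and Agpat2 rose with corticosterone on both diets. Agpat3 (chromosome 10, 78269178 to 78352489), an acyltransferase also found at the Golgi, had a lowest, median and highest level of 66.0, 86.8 and 96.4 CPM with vehicle and of 121, 152 and 217 CPM with corticosterone on the control diet. On atglistatin these were 78.0, 90.01 and 103 CPM with vehicle and 121, 156 and 178 CPM with corticosterone. The treated and untreated libraries did not overlap on either diet, and the log2 fold changes were 0.93 ± 0.08 (adjusted p = 3.0e-14) and 0.74 ± 0.08 (adjusted p = 4.8e-11). Its level with and without atglistatin did not pass the test under either drinking water.

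Agpat2 (chromosome 2, 26593057 to 26604417) gave the most tags of the listed AGPAT genes and is the gene whose loss causes a congenital lipodystrophy. It rose from 298 ± 26.5 to 370.4 ± 32.3 CPM on the control diet (0.31 ± 0.09, adjusted p = 0.0051) and from 207 ± 40.4 to 291 ± 51.7 CPM on atglistatin (0.49 ± 0.09, adjusted p = 4.1e-05). All 14 treated libraries lay above the vehicle mean on the control diet, and 13 of 14 did on atglistatin, replicate 41 being the exception. Agpat1 (chromosome 17, 34604262 to 34613449), with the fewest tags of the listed AGPAT genes, had means of 3.23 ± 0.658 and 4.01 ± 1.69 CPM on the control diet (0.32 ± 0.17, adjusted p = 0.13) and of 3.796 ± 0.577 and 3.83 ± 0.836 CPM on atglistatin (0.02 ± 0.17, adjusted p = 0.95). In the GENCODE M21 annotation the 3′ end of Agpat2 overlaps Egfl7 by 64 bases and that of Agpat1 overlaps Egfl8 by 101 bases, both on the opposite strand. The protein-coding gene Gm20532 also covers all 11361 bases of Agpat2 on the opposite strand. The strand setting of the counting is not given in the sources used here, so reads of the overlapping ends cannot be told apart.

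Lpin1 (chromosome 12, 16535669 to 16610966), a phosphatidate phosphatase that also acts as a transcriptional coactivator in liver, showed the largest change. With vehicle on the control diet its lowest, median and highest levels were 37.1, 58.2 and 319 CPM, and with corticosterone they were 197, 844 and 1353 CPM. On atglistatin these were 54.0, 93.1 and 414 CPM with vehicle and 137, 481 and 1036 CPM with corticosterone. On the control diet 1 treated library, replicate 29 at 197 CPM, fell within the vehicle range, which was stretched upward by replicates 12, 15 and 16 (319, 245 and 247 CPM), whereas the other 7 vehicle libraries lay at or below 85.0 CPM. The log2 fold change was 2.78 ± 0.40 (adjusted p = 1.3e-07) on the control diet and 1.70 ± 0.38 (3.24-fold, adjusted p = 0.00038) on atglistatin, where 13 of 14 treated libraries lay above the vehicle mean. The coefficient of variation of Lpin1 within groups was 89.5%, 77.4%, 39.4% and 54.3% in the order in which the groups were introduced, and in each group it was the highest of the 10 genes except in the corticosterone control-diet group.

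Lpin2 (chromosome 17, 71182560 to 71249817), the other lipin of liver, had means of 177 ± 77.8 and 178 ± 48.2 CPM without and with corticosterone on the control diet (0.01 ± 0.18, 95% interval -0.34 to 0.36, adjusted p = 0.97). On atglistatin they were 225 ± 73.7 and 243 ± 60.3 CPM (0.11 ± 0.18, adjusted p = 0.66). The annotation places all of Lpin2 within the noncoding gene Gm26561 on the same strand, so its reads cannot be assigned to 1 of these with certainty.

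At the DGAT step, Dgat2 (chromosome 7, 99153658 to 99182719), the enzyme tied to newly made fatty acids, rose on both diets. Its lowest, median and highest levels were 226, 259 and 308 CPM with vehicle and 299.5, 403 and 509 CPM with corticosterone on the control diet (0.61 ± 0.08, adjusted p = 1.6e-08). On atglistatin they were 205, 261 and 272 CPM with vehicle and 196, 304 and 343 CPM with corticosterone (0.25 ± 0.08, adjusted p = 0.012). In that last comparison 11 of 14 treated libraries lay above the highest vehicle library and 1, replicate 41, lay below the lowest, and the call was lost without vehicle atglistatin replicate 05 (0.19, adjusted p = 0.056). Dgat1 (chromosome 15, 76502015 to 76511953), which esterifies mainly preformed fatty acids, rose from 18.3 ± 2.12 to 23.9 ± 3.30 CPM on the control diet (0.38 ± 0.07, adjusted p = 1.8e-05), with all 14 treated libraries above the vehicle mean. On atglistatin its means were 19.9 ± 2.53 and 21.4 ± 1.75 CPM (0.11 ± 0.07, 95% interval -0.03 to 0.25, adjusted p = 0.24).

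Cell type markers moved with corticosterone beside these genes. Of 11 Kupffer cell and macrophage markers, 10 fell and 0 rose on each diet, and none was at 0 in every library of a group. Their summed level ran from 251 to 479 CPM with vehicle and from 97.2 to 211 CPM with corticosterone on the control diet, and from 197 to 374 CPM and 78.3 to 431 CPM on atglistatin. Of 8 stellate cell markers 6 fell on the control diet and 5 on atglistatin, and of 8 sinusoidal endothelial markers 3 and 6 fell. Both lymphocyte markers tested fell on each diet (medians -3.10 and -2.91). Of 7 pancreatic acinar markers, 0 were called by edgeR on the control diet (median 1.09, 0 of 7 at an unadjusted p under 0.05) and 7 fell on atglistatin (median -5.59), where the summed level reached 6389 CPM in vehicle atglistatin replicate 06. Without the 6 libraries with Cpa1 above 20 CPM, the same 8 of the 10 enzyme genes were called on the control diet and the same 6 on atglistatin. Of 9 hepatocyte markers 3 rose and 2 fell on the control diet, and 1 rose and 1 fell on atglistatin. In bulk tissue a change in the number of cells of a type and a change in RNA per cell cannot be told apart, and the part of cell composition in the results above was not tested. Without the 10 libraries labelled diabetic, 9 of which were in the corticosterone control-diet group, 5 of the 8 calls on the control diet were made, with Gpat3 at 0.33 (adjusted p = 0.28), Gpat4 at 0.17 (adjusted p = 0.29) and Agpat2 at 0.24 (adjusted p = 0.17) no longer passing.

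**Figure D3:**
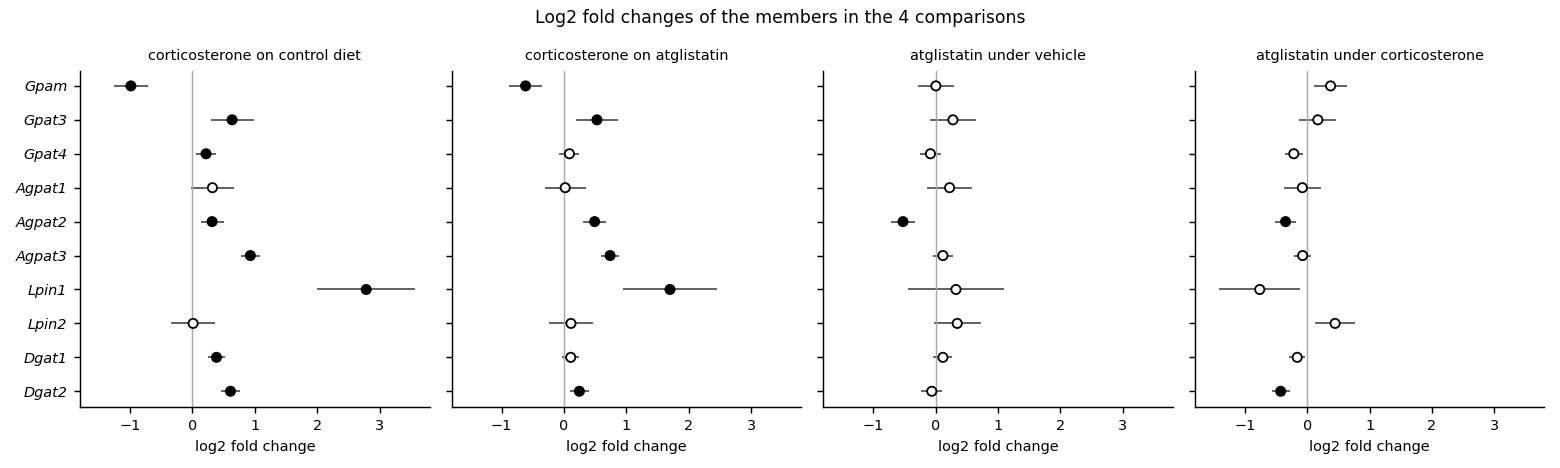
Log2 fold change of each gene (x axis) in 4 comparisons (panels), with bars spanning the 95% interval, where filled points passed the test. Lpin1 lies farthest to the right under corticosterone (2.78 and 1.70), Gpam to the left (-0.99 and -0.62), and Agpat2 is the gene filled in all 4 panels.

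Atglistatin lowered Agpat2 under both drinking waters and Dgat2 under corticosterone, by edgeR's test over all groups. Under vehicle, Agpat2 was the 1 gene called, lower, where 1.47% of all genes were called higher and 1.66% lower. The median log2 fold change of the 10 genes was 0.12, against 0.00 for all genes. Under corticosterone, Agpat2 and Dgat2 were called lower and none higher, where 5.19% of all genes were called higher and 6.47% lower, and the median was -0.12 against 0.00. Under corticosterone 4 genes rather than 2 were called in 3 other fits, each time Agpat2, Dgat2 and 2 more. These were Gpat4 (-0.21, adjusted p = 0.047) and Lpin2 (0.45, adjusted p = 0.024) with edgeR on the compared groups alone, Gpam (0.47, adjusted p = 0.011) and Lpin2 (0.43, adjusted p = 0.034) with limma voom, and Gpam (0.37, adjusted p = 0.046) and Gpat4 (-0.22, adjusted p = 0.035) with DESeq2. The comparisons under vehicle and under corticosterone share no library, and 42.2% of all genes called lower under vehicle were called lower under corticosterone too.

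Agpat2 fell from 298 ± 26.5 to 207 ± 40.4 CPM under vehicle (-0.52 ± 0.10, adjusted p = 0.00099). Its lowest, median and highest levels were 248, 296 and 351 CPM without and 120.5, 201 and 253 CPM with atglistatin, and 8 of the 10 atglistatin libraries lay below the lowest library of the control diet. Under corticosterone it fell from 370.4 ± 32.3 to 291 ± 51.7 CPM (-0.35 ± 0.08, adjusted p = 0.0039), and all 14 atglistatin libraries lay below the control-diet mean. The order of its group means was vehicle atglistatin, corticosterone atglistatin, vehicle control diet and corticosterone control diet, and the middle pair (291 and 298 CPM) was not compared in a test. The call under vehicle and that under corticosterone were both kept in each of the 48 fits that left out 1 library. Without the libraries labelled diabetic the value under corticosterone was -0.31 (adjusted p = 0.17). With atglistatin under vehicle, 2 of 9 hepatocyte markers (median -0.12) and 1 of 5 cholangiocyte markers (median -0.52) also fell. None of the marker lists had a member that rose there. The part of these markers in the fall of Agpat2 was not tested.

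A clock index moved with the diet. It is the log2 level of Dbp, a clock output gene, minus that of Arntl, a core clock gene in the opposite phase, and it was computed after the wide spread of Lpin1 was seen. Under vehicle the index averaged -0.73 ± 1.45 (SD, n = 10) without and 2.69 ± 1.84 (n = 10) with atglistatin, and under corticosterone -1.57 ± 0.94 (n = 14) and 0.54 ± 1.15 (n = 14). With the index as a covariate, Agpat2 was no longer called in either atglistatin comparison (-0.29, adjusted p = 0.43, and -0.19, adjusted p = 0.24), while Dgat2 under corticosterone was. With the same covariate Lpin2 was called higher with corticosterone on atglistatin (0.56, adjusted p = 0.011). The labels give no time of day at which tissue was taken. Whether the diet moved the clock genes or the groups were sampled at different times cannot be told apart.

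**Figure D4:**
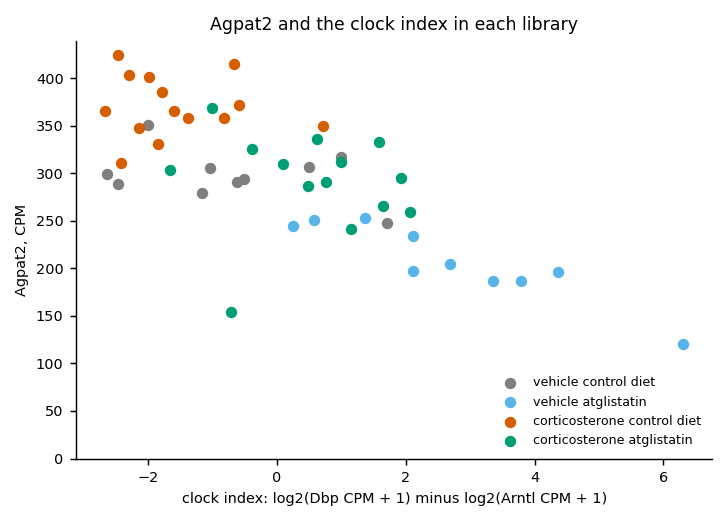
Agpat2 (y axis, CPM, from 0) against the clock index (x axis, log2 units) in each of the 48 libraries, coloured by group. Vehicle atglistatin replicate 14 has the highest index (6.31) and the lowest Agpat2 level (120.5 CPM), and corticosterone atglistatin replicate 41 lies below the other libraries of similar index at 154 CPM.

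Dgat2 fell with atglistatin under corticosterone from 396 ± 61.7 to 295 ± 38.0 CPM (-0.42 ± 0.07, adjusted p = 3.4e-05), and all 14 atglistatin libraries lay below the control-diet mean. Under vehicle its means were 259.7 ± 26.1 and 249 ± 25.2 CPM (-0.06 ± 0.09, 95% interval -0.23 to 0.11, adjusted p = 0.79). The order of its group means was vehicle atglistatin and vehicle control diet, which did not differ beyond their spread, then corticosterone atglistatin, then corticosterone control diet. Beside this fall, the adipocyte markers Adipoq and Fabp4, 2 of the 4 tested, were lower with atglistatin under corticosterone. The summed adipocyte markers ran from 26.4 to 61.5 CPM without and from 17.4 to 122 CPM with atglistatin there, and Adipoq averaged 1.05 and 0.353 CPM. In the same comparison 4 of 7 pancreatic acinar markers (median -4.15), 2 of 4 muscle markers (median -0.71), 2 of 9 hepatocyte markers (median -0.11) 1 of 8 sinusoidal endothelial markers (median -0.18) and 1 of 5 cholangiocyte markers (median -0.13) fell, and none of these lists had a member that rose. Without the libraries with Cpa1 above 20 CPM, Dgat2 stood at -0.40 (adjusted p = 0.00031). Of the libraries compared, 9 of 14 on the control diet and 1 of 14 on atglistatin were labelled diabetic. Without the libraries labelled diabetic, 609 rather than 1479 of all genes were called in this comparison. The value of Dgat2 in that fit is not reported here. Within the corticosterone control-diet group, Dgat2 averaged 370 CPM in nondiabetic and 410 CPM in diabetic libraries (0.14 ± 0.12, adjusted p = 0.99 by edgeR). The part of the other markers in the fall of Dgat2 was not tested.

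Other genes came near the threshold with atglistatin under corticosterone. Gpam stood at 3.62 ± 1.13 and 4.69 ± 0.812 CPM (0.38 ± 0.13, adjusted p = 0.054, 13 of 14 libraries above the control-diet mean). Gpat4 stood at 219 ± 26.6 and 189 ± 25.3 CPM (-0.21 ± 0.07, adjusted p = 0.052, 13 of 14 below), and Lpin2 at 178 ± 48.2 and 243 ± 60.3 CPM (0.45 ± 0.16, adjusted p = 0.063, 10 of 14 above). Lpin1 stood at 822 ± 324 and 486 ± 264 CPM (-0.76 ± 0.33, adjusted p = 0.14, 12 of 14 below), and Dgat1 at 23.9 ± 3.30 and 21.4 ± 1.75 CPM (-0.16 ± 0.06, adjusted p = 0.10). Of the 10 genes, 7 had an unadjusted p under 0.05 in this comparison. Leaving out single libraries brought several of these below the threshold: Gpam reached an adjusted p between 0.022 and 0.049 without any 1 of corticosterone atglistatin replicates 18, 23, 26 and 41, corticosterone control-diet replicates 35, 36 and 50 and vehicle atglistatin replicates 06, 08 and 14, and Gpat4 between 0.018 and 0.047 without any 1 of corticosterone atglistatin replicates 14, 23, 26, 38 and 40, corticosterone control-diet replicates 28, 29, 33, 34, 35 and 46, vehicle atglistatin replicates 05, 12 and 13 and vehicle control-diet replicates 01, 02, 03, 04, 09 and 10. Lpin2 was called without corticosterone control-diet replicate 45 (0.50, adjusted p = 0.035) or 46 (0.48, adjusted p = 0.046), and Dgat1 without corticosterone control-diet replicate 29 (-0.19, adjusted p = 0.039).

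The difference between the atglistatin effects under corticosterone and under vehicle was called for 0 of the 10 genes by edgeR, with 3 at an unadjusted p under 0.05, where 0.701% of all genes were called higher and 0.725% lower. DESeq2 called 0 and limma voom called 1, which was Dgat2. That gene had the smallest p, with a difference of -0.36 ± 0.11 (adjusted p = 0.089 by edgeR, 0.028 by voom). Without vehicle atglistatin replicate 05 or corticosterone control-diet replicates 29 or 50, the edgeR value passed (-0.40, -0.40 and -0.39, adjusted p = 0.043, 0.038 and 0.045). Dgat1 (-0.28 ± 0.10, adjusted p = 0.19) and Lpin1 (-1.09 ± 0.51, adjusted p = 0.38) were the other 2.

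Within the corticosterone control-diet group, the 9 libraries labelled diabetic were compared with the 5 labelled nondiabetic. The label does not split the mice cleanly by the labelled glucose. Replicate 36, labelled nondiabetic, had 242, near the 254 of replicate 37, labelled diabetic. Corticosterone atglistatin replicate 26 is labelled diabetic at 212. None of the 10 genes and 0% of 12003 genes tested were called higher or lower by edgeR, DESeq2 or voom, and no member had an unadjusted p under 0.05. The median of the 10 genes was 0.15, against 0.00 for all genes. Gpat3 had the smallest p, at 3.41 CPM in nondiabetic and 4.53 CPM in diabetic libraries (0.41 ± 0.23, adjusted p = 0.99). Lpin1 averaged 864 and 799 CPM (-0.11 ± 0.32, 95% interval -0.75 to 0.52).

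Insulin, given for each mouse in the labels without a unit, ran from 9.31 to 39.8 (median 37.8) in the corticosterone control-diet group and from 2.19 to 38.0 (median 13.8) in the corticosterone atglistatin group. The log2 level of each gene was set against insulin within each of these groups, which makes 20 relations. None passed after Benjamini-Hochberg adjustment. The closest was Agpat2 in the corticosterone atglistatin group (n = 14, Pearson r = 0.63, permutation p = 0.0060, adjusted p = 0.12, Spearman rho = 0.74, permutation adjusted p = 0.074), with r = 0.58 without the 2 libraries farthest from the median insulin. Gpam in that group had r = -0.54 (n = 14, permutation adjusted p = 0.35, rho = -0.43, permutation adjusted p = 0.82) and r = -0.37 without the farthest 2. In the corticosterone control-diet group the median insulin lay near the highest value, so r there rests largely on the few mice with low insulin. For Agpat2 in that group r was 0.51, and -0.05 without the farthest 2. The lack of a passing relation in that group is therefore of little weight.

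Levels of the 10 genes were also compared with each other after the group means were removed, as a description over 48 libraries that share depth, composition and time of sampling within a library. The closest pairs were Agpat3 with Lpin2 (r = 0.58), Gpat3 with Agpat3 (0.55), Gpat4 with Dgat1 (0.54) and Lpin1 with Lpin2 (0.52). Agpat2 with Lpin1, which act at consecutive steps, had r = 0.06. Among other genes averaging at least 5 CPM, Lpin1 was most like the interleukin 6 receptor gene Il6ra (0.83), Pptc7 (0.83) and Herpud1 (0.81). Agpat2 was most like Tmie (0.81), the manganese transporter gene Slc30a10 (0.81) and the bile acid 12-alpha-hydroxylase gene Cyp8b1 (0.77). Dgat2 was most like the bile acid transporter gene Slc10a1 (0.81), Dgat1 the angiotensinogen gene Agt (0.84), and Gpam the NADP-dependent isocitrate dehydrogenase gene Idh1 (0.57) and the malic enzyme gene Me1 (0.56).

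**Figure D5:**
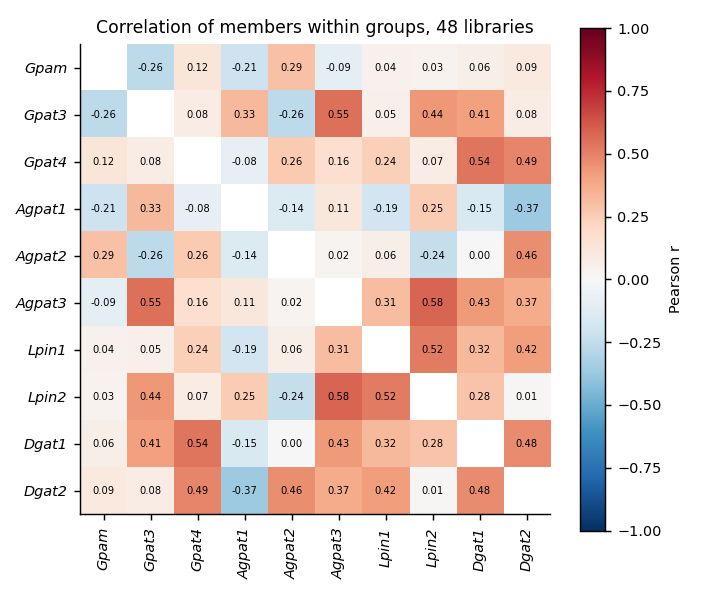
Pearson correlation of log2 levels between each pair of the 10 genes over 48 libraries after removal of the group means (colour scale from -1 to 1). Values run from -0.37 (Agpat1 with Dgat2) to 0.58 (Agpat3 with Lpin2).

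Other genes around the pathway were followed as lists, whose counts stand beside all-gene shares of 22.5% higher and 21.7% lower with corticosterone on the control diet and of 19.0% and 17.7% on atglistatin. Among other enzymes of glycerolipid synthesis, 3 of 15 tested genes rose and 1 fell with corticosterone on the control diet (20.0% and 6.67%), with a median of 0.08. They included Gpd1 (0.52 ± 0.11, adjusted p = 8.9e-05), whose enzyme makes glycerol-3-phosphate, Lpgat1 (0.63 ± 0.07, adjusted p = 1.5e-10) and Mogat1 (0.91 ± 0.34, adjusted p = 0.027), a monoacylglycerol acyltransferase at only 1.02 and 1.95 CPM. On atglistatin 4 rose and 1 fell. With atglistatin under corticosterone 1 rose and 3 fell, where 5.19% and 6.47% of all genes did: Gk, which encodes glycerol kinase, rose from 79.0 to 124 CPM (0.66 ± 0.07, adjusted p = 3.2e-09), while Mogat1 (-1.42 ± 0.31, adjusted p = 0.0012), Lpgat1 (-0.26 ± 0.06, adjusted p = 0.0030) and Gpd1 (-0.35 ± 0.10, adjusted p = 0.014) fell. Under vehicle Gk was the 1 of 15 called (0.30 ± 0.09, adjusted p = 0.046).

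Acyl-CoA synthetases activate fatty acids before the first acylation. With corticosterone on the control diet 4 of 8 fell and 1 rose (median -0.41), and on atglistatin 3 fell and 0 rose (median -0.14). Acss2, which activates acetate, fell by 1.84 ± 0.16 on the log2 scale on the control diet (adjusted p = 1.4e-13) and Acsl3 fell by 1.51 ± 0.14 (adjusted p = 3.5e-12). This list held 3 genes whose atglistatin effect differed between drinking waters, all toward higher values under corticosterone, beside 0.701% of all genes: Acsl3 (difference 1.06 ± 0.20, adjusted p = 0.0017), Acsl4 (0.83 ± 0.19, adjusted p = 0.011) and Acss2 (0.84 ± 0.23, adjusted p = 0.043). Among 16 genes of the phospholipid branches 5 rose and 3 fell on the control diet, and 3 rose and 4 fell on atglistatin, which is near the all-gene shares. Chpt1, which joins choline to diacylglycerol, rose on both diets (1.07 ± 0.17, adjusted p = 8.2e-07, and 0.77 ± 0.17, adjusted p = 0.00026), and Pcyt2, of the ethanolamine branch, fell on both (-0.56 ± 0.07, adjusted p = 1.4e-09, and -0.32 ± 0.07, adjusted p = 0.00019). Of 5 diacylglycerol kinases, Dgka rose and Dgkz fell on both diets, and Dgkq rose on atglistatin.

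Among 12 genes of triglyceride breakdown, 5 rose and 4 fell with corticosterone on the control diet, beside 22.5% and 21.7% of all genes, and 3 rose and 0 fell on atglistatin, beside 19.0% and 17.7%. The medians were -0.15 and -0.09. With atglistatin under corticosterone 1 rose and 1 fell. The list mixes lipase genes with genes of regulators such as Abhd5, G0s2 and Hilpda, so its counts give no direction of breakdown. The genes named next are among those that rose on the control diet. Pnpla2, the gene of the enzyme that atglistatin inhibits, averaged 36.9 ± 6.38 and 47.7 ± 12.6 CPM on the control diet (0.37 ± 0.15, adjusted p = 0.034) and did not pass with atglistatin under vehicle (0.34 ± 0.16, adjusted p = 0.26) or corticosterone (-0.01 ± 0.13, adjusted p = 0.99). Its coactivator gene Abhd5 rose with corticosterone on both diets (0.42 ± 0.10 and 0.70 ± 0.10), as did the monoglyceride lipase gene Mgll (1.01 ± 0.12 and 0.52 ± 0.11). Among 5 genes of lipin regulation and droplet assembly, the seipin gene Bscl2 rose (0.36 ± 0.07 and 0.37 ± 0.07) and Fitm1 fell (-0.97 ± 0.25 and -1.06 ± 0.25) on both diets. Among 18 transcriptional regulators, 3 rose and 4 fell on the control diet and 2 rose and 5 fell on atglistatin, also near the all-gene shares. Srebf1, the gene of a main activator of lipid synthesis, did not pass in either (60.4 ± 18.9 and 51.5 ± 20.97 CPM, -0.23 ± 0.22, and 56.2 ± 15.7 and 41.9 ± 18.5 CPM, -0.42 ± 0.22), and neither did Mlxipl, the gene of the carbohydrate sensor ChREBP (0.01 ± 0.17 and -0.08 ± 0.17). The glucocorticoid receptor gene Nr3c1 fell on both (-0.42 ± 0.07, adjusted p = 1.4e-06, and -0.26 ± 0.07, adjusted p = 0.0018). Insig1, a sterol sensor, fell (-1.72 ± 0.18 and -0.85 ± 0.18) and Insig2 rose (1.88 ± 0.16 and 1.42 ± 0.15) with corticosterone, and with atglistatin under corticosterone Insig1 rose (0.73 ± 0.17, adjusted p = 0.0021) and Insig2 fell (-0.79 ± 0.14, adjusted p = 3.9e-05).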

How the data were processed

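Per the labels' protocols, RNA came from powdered frozen liver, and QuantSeq libraries were read forward over 50 bases. The authors deposited a table of raw counts per gene, with DESeq2 1.24.0, R 3.6 and the build GRCm38 named in the submitters' processing notes. Not given in the sources used here are the aligner, the counter, the annotation and the strand setting. A second deposited table holds normalized signal, equal to the counts divided by 1 factor per library, and supplied gene symbols.

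Groups follow the treatment labels. Counts were kept by filterByExpr (minimum count 10, minimum total 15), which left 12688 genes, scaled by TMM and fitted over all 48 libraries with 1 mean per group in edgeR 4.0.16 (R 4.3.3), a fit first tested on simulated counts. The diabetic labels were fitted to their 14 libraries alone. Relations with insulin used log2(CPM + 1) and 100000 permutations, all 2-sided. Replicates are taken as separate mice, since each has its own glucose and insulin value. Within a group, no pair of libraries agreed within sampling noise (smallest chi-square per degree of freedom 6.27). Other settings were RLE factors, no filter, only the compared groups, DESeq2 1.42.0, a replicate block, and leaving out libraries. A further setting was limma 3.58.1 voom with sample weights, which is meant wherever voom is named. Fits with a clock index were chosen after seeing the data. All 10 genes are named in each comparison, other lists by counts and up to 4 called genes with the smallest p, and 5 further genes (Fkbp5, Pnpla2, Srebf1, Mlxipl and Nr3c1) whatever their values. The members and lists were chosen with earlier results of these data known. Positions are from GENCODE M21 and promoters from RefSeq, both on GRCm38.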

Additional observations from a re-analysis of the deposited data

Results flagged for a closer look

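In groups of at most 10 libraries, the distance of the highest or lowest library from its nearest neighbour was compared with Dixon's 95% critical value for each of the 10 genes in both vehicle groups, which makes 20 checks. Chance flags about 1 in 20 of these, and 2 were flagged. Both came from vehicle atglistatin replicate 14, where Gpat3 was highest at 6.23 CPM against a group median of 2.95 CPM and Agpat2 was lowest at 120.5 CPM against a median of 201 CPM. This library also had the highest Kupffer cell marker sum (374 CPM), the highest Fkbp5 level (43.9 CPM), the highest Lpin2 level (379 CPM) and the highest clock index (6.31) of its group. Without any 1 library, this one included, Agpat2 was lower with atglistatin under vehicle by values from -0.56 to -0.46 with an adjusted p of at most 0.0029.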

How the results depend on the processing

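Of 630 values of single genes recomputed under other settings, 560 kept their sign and their side of the threshold, 17 no longer passed, 16 newly passed and 37 turned sign, none of which belonged to a called gene; of 84 recomputed insulin relations 10 turned sign and none passed. RLE factors and the filter on low counts changed no count of called members by over 1.5 times. With corticosterone on the control diet, 5 of the 10 genes rather than 8 were called without the libraries labelled diabetic (3614 rather than 5606 of all genes). With atglistatin under vehicle, 0 rather than 1 were called with the clock index (13 rather than 397 of all genes). With atglistatin under corticosterone, 1 rather than 2 were called with the clock index (786 rather than 1479 of all genes), and 4 in the compared groups alone, with voom and with DESeq2. Leaving out 1 library gave 2 to 4 there and 0 to 1 for the interaction, where voom called 1. All-gene counts also moved by over 1.5 times for atglistatin under vehicle (207 without the Cpa1 libraries, 899 with voom), for atglistatin under corticosterone without diabetic libraries (609), and for the interaction, from 181 (89 higher, 92 lower) to 76 (56 and 20) without diabetic libraries, 64 (44 and 20) without the Cpa1 libraries and 359 with voom. The cause was not tested.

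The values that turned sign were the following log2 values, against the edgeR value first given. With corticosterone on the control diet, Lpin2 (0.01) was -0.0032 with RLE factors, -0.0031 with DESeq2, -0.0062 in the compared groups alone and -0.22 without diabetic libraries. On atglistatin, Agpat1 (0.02) was -0.0030 without a filter, -0.00092 in the compared groups alone, -0.0092 without diabetic libraries, -0.029 without the Cpa1 libraries, -0.013 with voom and -0.11 with the replicate block, and Dgat1 (0.11) was -0.15 with the block. With atglistatin under vehicle, Gpam (0.005) was -0.13 without the Cpa1 libraries, -0.031 with voom and -0.00042 with DESeq2; with the clock index Gpat3 (0.28) was -0.091, Agpat1 (0.22) -0.096, Lpin1 (0.33) -0.18 and Lpin2 (0.35) -0.27; in the 8 numbered libraries Dgat2 (-0.06) was 0.10 with and without the block and Agpat1 -0.00090 without it. With atglistatin under corticosterone, Gpat3 (0.17) was -0.034 with the clock index, and without diabetic libraries Agpat1 (-0.08) was 0.076 and Agpat3 (-0.07) was 0.043. For the interaction, Gpat3 (-0.11) was 0.18 without diabetic libraries, 0.022 without the Cpa1 libraries and 0.057 with the clock index, and Lpin2 (0.10) was -0.021 without the Cpa1 libraries and -0.083 with voom. Leaving out 1 library gave ranges across 0 for Lpin2 with corticosterone on the control diet (-0.069 to 0.12), Agpat1 with corticosterone on atglistatin (-0.039 to 0.082), Gpam with atglistatin under vehicle (-0.063 to 0.064), Agpat1 with atglistatin under corticosterone (-0.15 to 0.0032), Gpat3 and Lpin2 for the interaction (-0.18 to 0.053 and -0.035 to 0.22), and Gpat4 and Lpin1 for the diabetic labels (-0.023 to 0.12 and -0.36 to 0.11). Without the 2 libraries farthest in insulin, r turned to -0.15 for Gpat3, -0.29 for Gpat4, -0.052 for Agpat2, -0.066 for Agpat3 and -0.42 for Dgat1 on the control diet, and to 0.10 for Gpat3, -0.090 for Lpin2 and 0.029 for Dgat1 on atglistatin; without corticosterone atglistatin replicate 41 it turned to 0.14 for Gpat3 and -0.11 for Gpat4. The cause was not tested.

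Title numbers are shared by 4 pairs of vehicle libraries and by 2 pairs of atglistatin libraries. Same-numbered deviations correlated at -0.13 to 0.06 in the former and -0.08 in the latter. Of the 4 vehicle pairs, 1 correlated best with its own number. So few pairs cannot show whether the numbers stand for a pairing or block, and with 2 pairs both give the same value by construction. With a replicate block, 0 of the 10 genes were called for atglistatin under vehicle (8 libraries, 4 of all genes called) and 0 for corticosterone on atglistatin (4 libraries, 56 of all genes rather than 4652), and without the block the same 8 libraries also gave 0 (0 of all genes). These fits hold fewer samples.

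Gpam, Gpat3 and Agpat1 lay under 11 CPM in every library, the lowest levels among the 10 genes, and depth limits their precision most. The labels name no batch, cage or day, and no such term was fitted.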
